A study of Mus musculus with 6 samples.

Results

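The glucocorticoid receptor gene Nr3c1 and 9 genes that glucocorticoids are known to switch on were followed in RNA-seq of mouse gastrocnemius muscle. The 10 genes were taken by symbol from a table of 24532 genes, and all 10 had enough counts to be tested. The study removed Sirt6, a NAD-dependent deacylase of histones, from muscle fibers and asked which transcripts changed. Both groups were male C57BL/6 mice of 20 weeks with 3 libraries each, labelled as separate replicates of the genotype. The study's reporting summary gives the Sirt6 flox line a stock name of mixed background, and the methods give another stock. The WT mice carried Sirt6 flox/flox alone, and the Sirt6 KO mice carried Myl1-Cre with Sirt6 flox/flox. The flox alleles were therefore shared by all 6 mice, and no group carried Cre without them. Myl1-Cre is driven by a myosin light chain promoter that works chiefly in fast fibers, so other cells of the muscle should keep Sirt6. Food was freely available to the mice, and the time of day and feeding state at collection are not given in the sources used here. 

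Glucocorticoids are adrenal steroids that enter cells and bind a receptor held ready by heat shock proteins in the cytoplasm. The bound receptor moves to the nucleus, where pairs of receptors bind a palindromic DNA element and switch genes on or off. In skeletal muscle the hormone is best known for slowing protein synthesis, promoting protein breakdown and shifting fuel use during fasting and stress.

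Sirt6 itself was checked first, and it went against the labels. Its level was 2.77, 2.23 and 2.88 CPM, the counts scaled to a common library size, in WT libraries 1, 2 and 3, and 7.81, 7.44 and 6.68 CPM in KO-labelled libraries 1, 2 and 3. On the log2 scale it was higher by 1.48 with a standard error (SE) of 0.17 (edgeR quasi-likelihood test, adjusted p = 0.0113). Which exons the reads came from was not analysed here. Every direction given here is therefore between the libraries labelled Sirt6 KO and those labelled WT.

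The 6 libraries held 44845763 to 63016899 counts each, so that 1 count was worth 0.0165 to 0.0212 CPM. The myosin Myh4 was the most abundant gene of every library, as a gastrocnemius should show. Genes of fast muscle summed to 140716, 149279 and 230483 CPM in WT libraries 1, 2 and 3. In the libraries labelled KO the fast muscle sums were 224451, 221853 and 255833 CPM. WT library 3 thus lay within the range of the KO-labelled libraries, and WT libraries 1 and 2 lay below it. The 6 slow muscle genes, which include the slow myosin Myh7, split the libraries within both groups. They summed to 3276 and 2686 CPM in WT libraries 1 and 2 but 125 CPM in WT library 3, and to 340, 1931 and 467 CPM in the libraries labelled KO. Red blood cell markers split the same libraries, with sums of 297 and 291 CPM in WT libraries 1 and 2, 46.6 CPM in WT library 3, and 110, 181 and 80.2 CPM in the libraries labelled KO. Of these, the globin gene Hbb-bt was at 55.5, 52.1 and 31.5 CPM in WT libraries 1 and 2 and KO library 2. It was at 0 in WT library 3 and KO libraries 1 and 3, where Hbb-bs was at 23.1, 51.9 and 38.6 CPM. A genetic difference between the mice was not tested. Endothelial markers (140 to 260 CPM), Schwann cell markers (25.7 to 72.9 CPM) and fibroblast markers (489 to 878 CPM) also had their lowest WT sum in library 3. Fat cell markers, too, had their lowest WT sum in library 3, at 124 CPM against 184 and 257 CPM in WT libraries 1 and 2. They summed to 162 to 293 CPM in the libraries labelled KO. Macrophage markers summed to 23.4 to 54.0 CPM. Neutrophil markers summed to 0.244 to 0.799 CPM, with Ly6g at 0 in every library. Of 44 marker genes tested, 1 was called lower and 0 higher. The part of these other cells in the results was not tested. In whole muscle, fewer cells of a type and less RNA per cell cannot be told apart.

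Promoter sequences are given for the genes whose elements or values stand out among the 10. RefSeq windows of GRCm38.p6, holding 250 bases before and 50 after a transcript start, were at hand for 7 of the 10 genes, as 15 windows. Both strands were searched for the receptor's full palindrome, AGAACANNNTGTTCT. It stood in 3 of 32851 mouse windows (0.00913%), and 1 of those 3 belonged to Sgk1, in front of 1 of its 6 listed starts. The palindrome began 189 bases before that start. The 250 bases before it, on the plus strand at chr10:21993640-21993889, are shown with the palindrome in capitals, along with an E-box (CACGTG) near the left end.
Sgk1: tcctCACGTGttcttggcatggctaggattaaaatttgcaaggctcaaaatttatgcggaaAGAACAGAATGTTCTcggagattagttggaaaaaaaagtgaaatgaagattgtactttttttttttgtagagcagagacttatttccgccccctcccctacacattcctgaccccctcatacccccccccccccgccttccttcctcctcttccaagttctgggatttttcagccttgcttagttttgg
The arm of the palindrome, AGAACA, which it contains, was far more common, in 19.0% of all windows and in 4 of these 15. Those 4 were 3 starts of Sgk1 and 1 of Tsc22d3. In the Sgk1 window printed above, 1 further arm overlapped the E-box.

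The other element of interest was the cyclic AMP response element, TGACGTCA, bound by the transcription factor CREB. It stood in 1.79% of all windows and in 1 of these 15, at a start of Errfi1, where it began 51 bases before transcription. Its shorter form TGACG, contained in it, was in 20.8% of all windows and in 5 of the 15. The Errfi1 stretch lies on the plus strand at chr4:150854820-150855069, and the element is in capitals.
Errfi1: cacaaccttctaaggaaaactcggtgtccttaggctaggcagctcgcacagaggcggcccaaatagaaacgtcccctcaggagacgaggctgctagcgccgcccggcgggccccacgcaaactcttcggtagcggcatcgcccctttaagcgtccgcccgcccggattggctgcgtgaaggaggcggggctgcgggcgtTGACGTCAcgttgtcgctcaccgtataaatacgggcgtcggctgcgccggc
Ddit4 and Fkbp5 are shown because their values, given further on, lay at opposite ends of the 10 genes. The Ddit4 stretch is on the minus strand at chr10:59951771-59952020 and held none of the letters searched.
Ddit4: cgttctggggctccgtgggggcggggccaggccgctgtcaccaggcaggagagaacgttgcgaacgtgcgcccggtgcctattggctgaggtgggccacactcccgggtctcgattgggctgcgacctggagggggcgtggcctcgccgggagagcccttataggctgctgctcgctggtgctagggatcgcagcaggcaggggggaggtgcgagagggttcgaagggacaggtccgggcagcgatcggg
The Fkbp5 stretch is on the minus strand at chr17:28486150-28486399, with its E-box in capitals. E-boxes were in 7.15% of all windows and in 3 of the 15, namely those of Fkbp5 and Klf15 and the Sgk1 window printed above.
Fkbp5: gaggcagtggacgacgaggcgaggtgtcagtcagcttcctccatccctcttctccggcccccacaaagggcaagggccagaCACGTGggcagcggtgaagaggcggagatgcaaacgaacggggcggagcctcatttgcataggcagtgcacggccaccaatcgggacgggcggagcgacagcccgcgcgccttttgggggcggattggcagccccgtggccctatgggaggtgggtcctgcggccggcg
These matches describe letters in short windows; receptor binding was not measured.

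Transcript levels can be compared between genes only per length, as FPKM. In WT muscle Tsc22d3 was highest with a mean of 349 FPKM, and Sgk1 (159) and Ddit4 (154) followed with overlapping libraries. Klf9 (47.1), Klf15 (38.5) and Zbtb16 (33.6) came next, each overlapping its neighbour. The receptor Nr3c1 (27.5), Fkbp5 (25.1), Errfi1 (22.04) and Cebpd (15.1) closed the order, again with each neighbour overlapping, while all 3 WT libraries of Nr3c1 lay under those of Zbtb16. The lowest count of any of the 10 genes in a library was 347.

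The receptor and 5 of its 9 targets were lower in the KO-labelled libraries than in WT. The 5 targets were Ddit4, Errfi1, Zbtb16, Klf15 and Tsc22d3. Cebpd lay apart in all libraries but missed the threshold, and Sgk1, Klf9 and Fkbp5 did not pass. The 6 genes called lower of 10 stood against 8.39% of all 13801 genes tested (edgeR, Benjamini-Hochberg adjusted p under 0.05). None of the 10 was called higher, against 7.85% of all genes; at an unadjusted p under 0.05 none was higher and 7 were lower, against 17.2% and 18.1% of all genes. DESeq2 called 0 higher and 7 lower, against 12.4% and 12.9% of all genes. In 7 of the 10 every library labelled KO lay below every WT library, against 19.6% of all genes. The median log2 fold change of the 10 was -1.09, against -0.02 over all genes, of which 51.6% were negative. The genes were chosen with earlier results of these data known, so this count is a description of the 10.

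**Figure D1:**
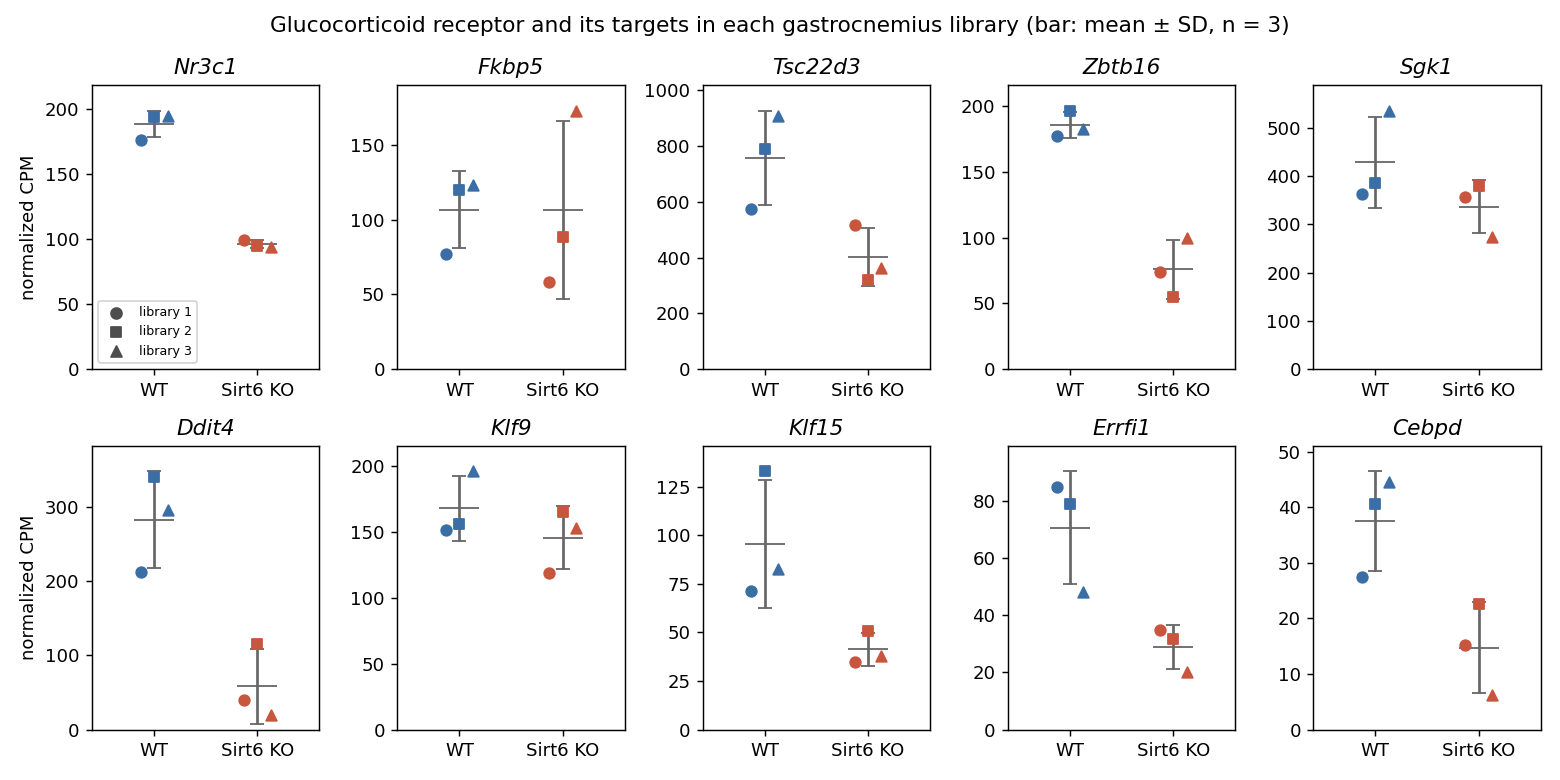
Normalized CPM (vertical axis, starting at 0) of the receptor Nr3c1 and its 9 targets in each of 3 WT (blue) and 3 Sirt6 KO (red) libraries, with the mean and SD as a gray bar; symbols mark the library number. The groups were apart for 7 genes and overlapped for Fkbp5, Sgk1 and Klf9, and Fkbp5 was highest in Sirt6 KO library 3.

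Nr3c1 encodes the glucocorticoid receptor, a ligand-dependent transcription factor (chromosome 18; gene coordinates here are GRCm38). Its level was 176, 194 and 195 CPM in the WT libraries, and 99.4, 94.5 and 93.9 CPM in those labelled Sirt6 KO. The groups did not overlap, and the spread within each was small, with a coefficient of variation of 5.46% in WT and 3.16% in KO. The fitted level was 1.96-fold lower in the KO-labelled libraries, a log2 fold change of -0.97 (SE 0.10, 95% interval -1.22 to -0.73, adjusted p = 0.0110 by edgeR). Nr3c1 stood at place 24 of 13801 when genes were ordered by p. Leaving out 1 library gave -1.01 to -0.95; the adjusted p was then 0.0589 without KO library 1 and 0.0696 without KO library 3, and under the threshold in the other 4 fits. Removing the trend of fold change over GC content moved it to -0.73 (adjusted p = 0.0227).

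Fkbp5 encodes a co-chaperone that lowers the receptor's affinity for hormone, and its transcript is widely read as a gauge of receptor activity (chr17:28398753-28486149). It measured 76.9, 120 and 123 CPM in WT and 58.2, 88.1 and 173 CPM in the libraries labelled KO. The KO libraries spanned the whole range of the WT libraries, holding both the lowest and the highest of the 6 values. The log2 fold change was -0.00 (SE 0.38, 95% interval -0.90 to 0.89, edgeR adjusted p = 0.995). The interval thus includes a fall nearly as large as that fitted for the receptor. Without KO library 3 the value was -0.54 (adjusted p = 0.277), and without KO library 1 it was 0.29 (adjusted p = 0.607).

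Among the targets that encode transcription factors, Zbtb16 and Klf15 fell. Zbtb16 (chr9:48651797-48836225) is a zinc finger repressor also known as PLZF. It measured 177, 196 and 183 CPM in WT and 73.8, 54.4 and 99.4 CPM in KO. All 3 KO values lay far under the WT values, which varied by only 5.30%. The change was -1.29 on the log2 scale (SE 0.21, edgeR adjusted p = 0.0155). Leave-one-out fits gave -1.53 to -1.09. The adjusted p stayed under the threshold without WT library 3 (0.0119) or KO library 2 (0.0352), and was 0.0505 without WT library 1, 0.0553 without WT library 2, 0.0681 without KO library 1 and 0.0650 without KO library 3.

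Klf15 (chr6:90461043-90491803) drives branched-chain amino acid breakdown and other fasting programs in muscle. Its levels were 71.2, 133 and 82.7 CPM in WT and 34.9, 50.8 and 38.1 CPM in KO. The groups were apart, with WT library 2 well above the other WT libraries. Klf15 changed by -1.21 on the log2 scale (SE 0.26, edgeR adjusted p = 0.0246), and it was -0.90 without WT library 2 (adjusted p = 0.0596). It also missed the threshold without KO library 1 (0.0946) and without KO library 3 (0.104).

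Cebpd and Klf9 did not pass. Cebpd (chr16:15887286-15889545), a basic leucine zipper factor of stress and fat cell differentiation, measured 27.4, 40.6 and 44.5 CPM in WT and 15.2, 22.7 and 6.30 CPM in KO. The groups did not overlap, but the KO libraries differed 3.60-fold among themselves. Its log2 fold change was -1.35 (SE 0.42, 95% interval -2.34 to -0.36), with an adjusted p of 0.0683 by edgeR and 0.00490 by DESeq2. Klf9 (chr19:23141226-23168129), a Krüppel-like repressor that hormone induces rapidly in many tissues, measured 151, 156 and 196 CPM in WT and 119, 165 and 153 CPM in KO. The libraries overlapped, and the log2 fold change was -0.20 (SE 0.17, 95% interval -0.59 to 0.19, edgeR adjusted p = 0.412).

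Among the targets that act on growth signaling, Ddit4 and Errfi1 fell. Ddit4 (chr10:59949675-59951770), also called REDD1, restrains the growth kinase complex mTORC1. It measured 212, 340 and 295 CPM in WT and 39.5, 116 and 20.3 CPM in the libraries labelled KO. Every KO value was below every WT value, and the KO values differed 5.71-fold among themselves, with library 2 well above libraries 1 and 3. The log2 fold change was -2.27 (SE 0.59, 95% interval -3.65 to -0.89, edgeR adjusted p = 0.0420), which made it the largest estimated fall of the 10. Leave-one-out fits gave -3.23 without KO library 2 (adjusted p = 0.0279) to -1.86 without KO library 3 (0.0940). The adjusted p was 0.0901 without WT library 1, 0.109 without WT library 2 and 0.139 without KO library 1.

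Among the libraries labelled KO, library 2 was the highest for Ddit4 and also for the slow muscle sum, which was 340, 1931 and 467 CPM there. WT library 3, with a slow muscle sum of 125 CPM, had 295 CPM of Ddit4. The part of fiber makeup in the Ddit4 values was not tested.

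Errfi1 (chr4:150853796-150868889) encodes an adaptor that inhibits the epidermal growth factor receptor. It measured 84.8, 78.8 and 48.2 CPM in WT and 34.7, 31.6 and 20.1 CPM in KO. The groups were apart, though WT library 3 came closer to KO library 1 than to the other WT libraries. The log2 fold change was -1.29 (SE 0.27, edgeR adjusted p = 0.0240). It passed without WT library 3 (-1.50, adjusted p = 0.00750), and without any 1 of the other libraries, WT 1 and 2 and KO 1, 2 and 3, the adjusted p lay between 0.0597 and 0.0853.

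Sgk1 (chr10:21882184-21999903), a kinase that regulates ion channels and shares substrates with Akt, was the gene with the full palindrome before a start. It measured 364, 386 and 536 CPM in WT and 356, 379 and 274 CPM in KO. KO library 2 lay above WT library 1, so the groups overlapped. The fitted log2 fold change was -0.35 (SE 0.20, 95% interval -0.81 to 0.11, edgeR adjusted p = 0.245). Counts were per gene, so the start that holds the palindrome could not be followed by itself.

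Tsc22d3 (chrX:140539528-140600522), known as GILZ, carries much of the anti-inflammatory action of the hormone. It measured 575, 791 and 908 CPM in WT and 518, 320 and 363 CPM in KO. The groups were apart, narrowly so between WT library 1 and KO library 1. Tsc22d3 changed by -0.92 on the log2 scale (SE 0.24, edgeR adjusted p = 0.0421). This call was the least firm of the 6. The adjusted p was over the threshold without any 1 library, from 0.0513 without WT library 3 to 0.153 without KO library 3, and was 0.0647 with the GC trend removed.

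**Figure D2:**
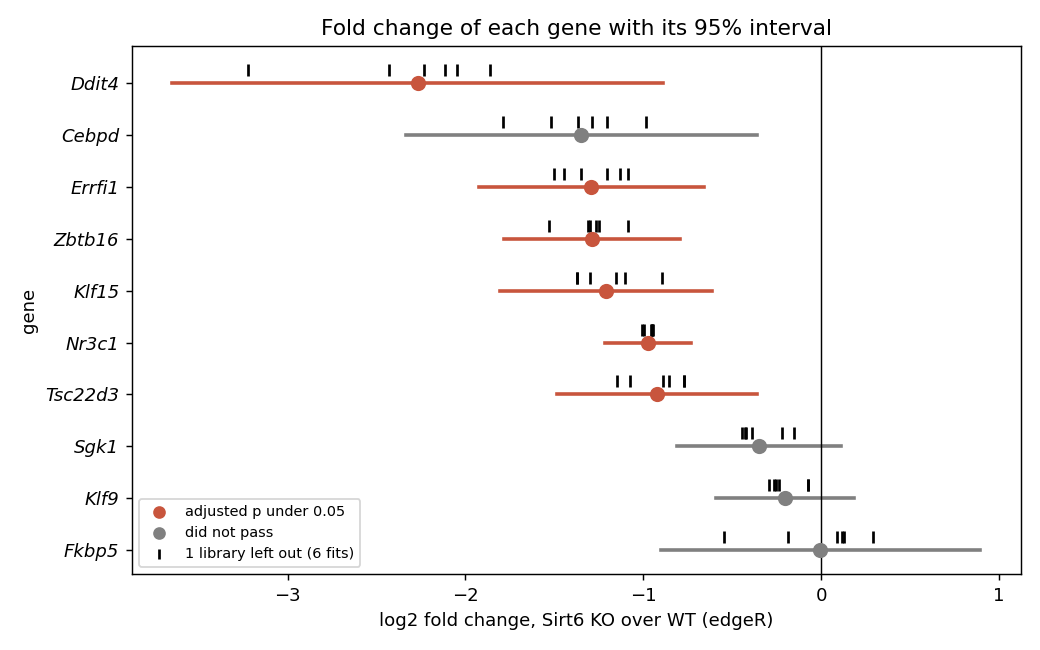
Log2 fold change of Sirt6 KO over WT (horizontal axis, edgeR) of each gene, with its 95% interval as a line; black ticks are the values with 1 library left out, and red marks an adjusted p under 0.05. The point estimates ran from -2.27 for Ddit4 to -0.00 for Fkbp5, and only for Fkbp5 did the ticks lie on both sides of 0.

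With 1 library left out, 9 of the 10 genes kept their direction in all 6 fits, Fkbp5 being the exception, but the number called changed. Without KO library 1, and likewise without KO library 3, edgeR called 0 of the 10, when it called 2 and 5 genes lower in the whole table. With WT library 2 left out it called 1 (Nr3c1), and with WT library 1 left out it called 2 (Nr3c1 and Klf15). Without KO library 2 it called 4, and without WT library 3 it called 5. The same 7 genes, the 6 called and Cebpd, were lower with an unadjusted p under 0.05 in all 6 of these fits, as were 12.3% to 22% of all genes.

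**Figure D3:**
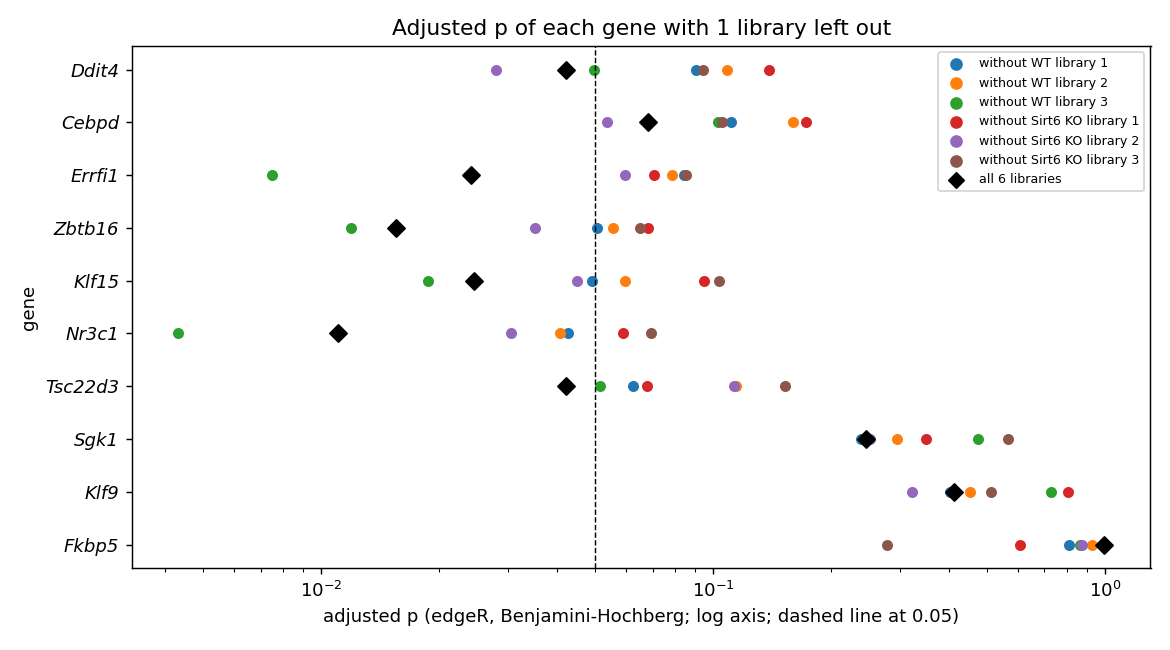
Adjusted p (horizontal axis, logarithmic) of each gene with all 6 libraries (black diamond) and with 1 library left out (colored points); the dashed line is at 0.05. With all 6 libraries 6 genes lay left of the line, and without Sirt6 KO library 1 or 3 none did.

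For this list and those below, the edgeR shares over all genes were 8.39% called lower and 7.85% higher. They were 18.1% and 17.2% at an unadjusted p under 0.05, and DESeq2 called 12.9% and 12.4%. Of 13 chaperones that fold and hold the receptor, 7 were lower, 0 higher and 6 not called by edgeR. Their median log2 fold change was -0.64. At an unadjusted p under 0.05 (edgeR), 10 were lower and 0 higher, and DESeq2 called 10 lower and 0 higher. Hsp90aa1, the stress-inducible HSP90, ranged from 133 to 591 CPM in WT and from 44.3 to 60.4 CPM in KO (log2 fold change -2.63, SE 0.54, adjusted p = 0.0229). Ptges3, the p23 co-chaperone that locks HSP90 onto the receptor, changed by -0.85 (adjusted p = 0.0132), from 91.0 ± 10.6 to 50.4 ± 2.95 CPM (mean ± SD, n = 3). The HSP70 protein Hspa8 (-0.89) and the HSP70 partners Dnaja1 (-1.96) and Hspa4 (-0.64) also fell. So did Ppid (-0.76), the cyclophilin of the mature receptor complex. The constitutive Hsp90ab1 (-0.28, edgeR adjusted p = 0.224) and Fkbp4 (0.03, 0.871), which competes with Fkbp5 for the complex, did not pass. Leaving out 1 library left 0 lower without KO library 1 or KO library 3 (8 at an unadjusted p under 0.05 each), 2 without WT library 2, 4 without WT library 1 or KO library 2, and 9 without WT library 3. In the whole table, edgeR called 2 genes lower without KO library 1 and 5 without KO library 3. It called 153 lower without WT library 2, 259 without WT library 1, 442 without KO library 2 and 2219 without WT library 3. These counts stand beside the later lists too.

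Other steroid receptors and enzymes that handle corticosteroids gave no call. Of 10 listed genes 6 were tested and edgeR called 0 in either direction; at an unadjusted p under 0.05, 1 was lower and 2 higher, and DESeq2 called 1 higher. The estrogen receptor Esr1 had a log2 fold change of -0.38 (edgeR adjusted p = 0.114). Without WT library 3 the list gave 3 lower and 1 higher, and 0 in each other leave-one-out fit. Of 12 coregulators of the receptor, 1 was lower and 0 higher by edgeR. At an unadjusted p under 0.05 (edgeR), 3 were lower and 2 higher, and DESeq2 called 1 lower and 1 higher. Over all genes the unadjusted shares were 18.1% lower and 17.2% higher, and those of DESeq2 12.9% and 12.4%. The edgeR call was Nrip1, a corepressor that nuclear receptors recruit when bound to hormone, at 46.1 ± 2.29 CPM in WT and 26.3 ± 3.17 CPM in KO (log2 fold change -0.81, SE 0.12, adjusted p = 0.0132). The corepressor Ncor1 did not pass (-0.09, edgeR adjusted p = 0.553). Nrip1 was not called without KO library 1 or KO library 3.

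Among further genes that the hormone is known to induce, most were not called by edgeR, and of those called all but 1 were lower. Of 26 tested, 7 were lower and 1 higher by edgeR, with a median log2 fold change of -0.45, and DESeq2 called 11 lower and 1 higher. At an unadjusted p under 0.05 (edgeR), 12 were lower and 1 higher. The metallothioneins Mt1 (-2.58, adjusted p = 0.0174) and Mt2 (-2.24, 0.0168), which bind zinc, had the largest called falls, Mt1 from 65.1 ± 29.1 to 10.9 ± 6.18 CPM (n = 3). Fam107a, an actin-bundling protein induced by stress (-1.83), the phosphatase Dusp1 (-1.37) and the cell cycle inhibitor Cdkn1a (-1.22) fell as well. Angptl4, an inhibitor of lipoprotein lipase, rose from 7.94 to 10.4 CPM in WT to 35.2 to 47.1 CPM in KO (log2 fold change 2.18, SE 0.17, edgeR adjusted p = 0.00873). It was the gene of the list with the smallest p, and it was called higher in all 6 leave-one-out fits. The fuel switch kinase Pdk4 (-0.76, adjusted p = 0.0935) and Txnip (0.40, 0.482) did not pass. The count called lower was 0 without WT library 2, KO library 1 or KO library 3 (7, 8 and 9 at an unadjusted p under 0.05), 2 without WT library 1, 4 without KO library 2 and 10 without WT library 3.

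Muscle protein turnover genes also contained falls. Of 16 tested, 4 were lower and 1 higher by edgeR, with a median of -0.27. At an unadjusted p under 0.05 (edgeR), 6 were lower and 1 higher, and DESeq2 called 6 lower and 1 higher. Trim63, the ubiquitin ligase MuRF1 that marks sarcomere proteins, ranged from 1177 to 2886 CPM in WT and from 561 to 719 CPM in KO (-1.81, SE 0.33, adjusted p = 0.0181). Foxo1 (-1.51, adjusted p = 0.0358), which drives such ligases, the ligase Fbxo30 (-1.25, 0.0132) and the mitophagy receptor Bnip3 (from 383 to 191 CPM, 0.0218) fell. The ligase subunit Fbxo21 rose by 0.90 (adjusted p = 0.0131). Fbxo32, or atrogin-1, lay apart between groups but missed the threshold (-0.97, SE 0.30, edgeR adjusted p = 0.0664), and Gpt2 (0.39, 0.336) did not pass. No gene of the list was called without KO library 1 or without KO library 3, and 1 to 5 were called lower in the other 4 fits, with 1 lower when WT library 2 was left out and 2 lower when WT library 1 was.

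Close relatives of the targets moved in both directions. Of 10 tested, 2 were lower and 2 higher by edgeR, with a median of -0.28. At an unadjusted p under 0.05 (edgeR), 4 were lower and 2 higher, and DESeq2 called 2 lower and 2 higher. Ddit4l, the paralog of Ddit4 that also restrains mTORC1, rose from 174 ± 51.6 CPM to 471 ± 125 CPM. The log2 fold change of Ddit4l was 1.43 (SE 0.28, edgeR adjusted p = 0.0204), where Ddit4 fell by 2.27 on the log2 scale. Tsc22d4, a relative of Tsc22d3, rose from 18.7 ± 1.86 CPM to 39.4 ± 5.33 CPM (1.08, adjusted p = 0.0128), and Tsc22d1 did not pass (-0.37, 0.1001). Klf13, close to Klf9, changed by -0.60 (adjusted p = 0.0332), and Cebpg, a relative of Cebpd, by -0.73 (0.0132). Without KO library 1 or KO library 3 none of these was called, and without WT library 1 or WT library 2 only 1 remained called higher, Tsc22d4.

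Inflammatory genes that the hormone is known to repress were mostly near the detection limit. Of 11 listed 5 were tested, and 1 was lower and 0 higher by edgeR and by DESeq2. At an unadjusted p under 0.05 (edgeR), 3 were lower and 1 higher. The 5 tested had a median log2 fold change of -1.22 by edgeR, and 4 were negative. Icam1, an adhesion molecule, fell from 5.69 ± 1.67 CPM to 2.44 ± 0.21 CPM (-1.22, SE 0.25, adjusted p = 0.0234). Another adhesion molecule, Vcam1, had a log2 fold change of -0.26 (adjusted p = 0.371 by edgeR). Icam1 was called in 1 of the 6 leave-one-out fits, the one without WT library 3.

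**Figure D4:**
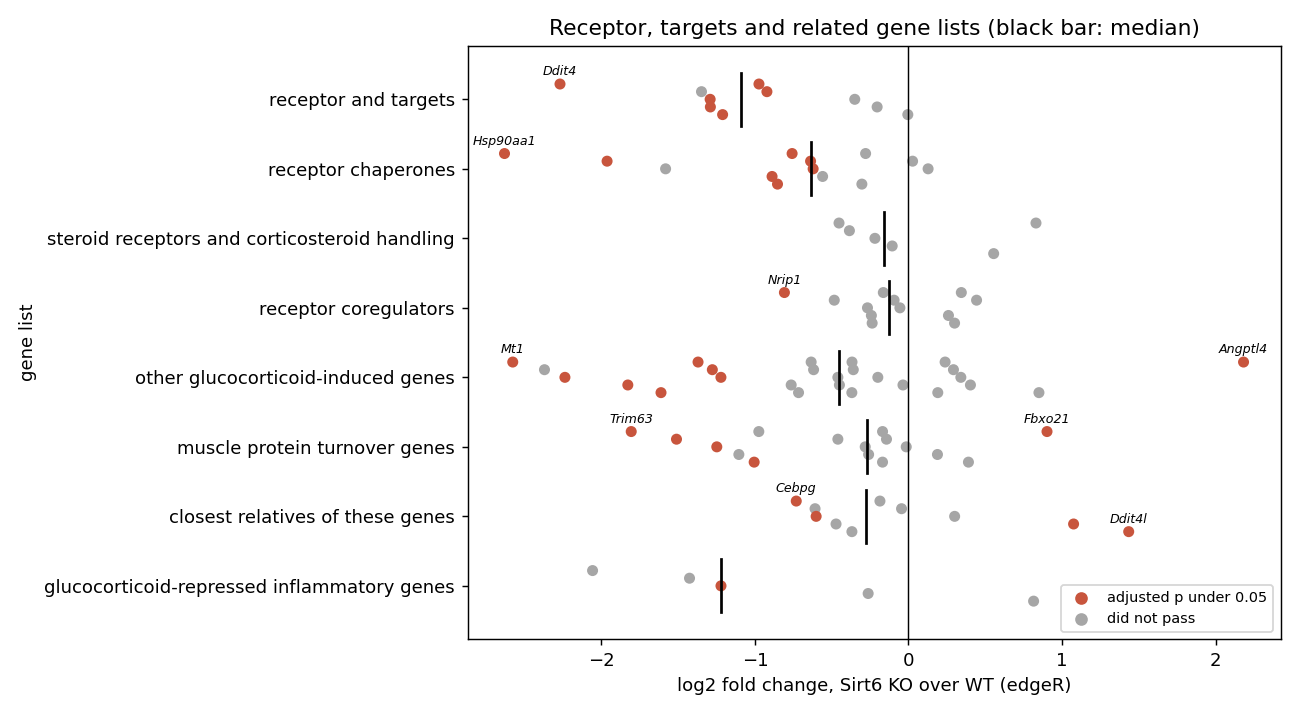
Log2 fold change of Sirt6 KO over WT (horizontal axis, edgeR) of the 10 genes and of the tested genes of each related list; each point is a gene, red points had an adjusted p under 0.05, black bars are medians, and a gene at the end of a list is named where it passed. The median was -1.09 for the receptor and its targets, -0.64 for the chaperones and -0.13 for the coregulators. It was -1.22 for the 5 tested inflammatory genes that the hormone is known to repress. Angptl4, Ddit4l, Tsc22d4 and Fbxo21 were the 4 red points right of 0.

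Over the 7 lists, 88 of 100 genes were tested; 22 were lower and 4 higher by edgeR, and 31 and 6 by DESeq2. Over all genes tested, edgeR called 8.39% lower and 7.85% higher, and DESeq2 12.9% and 12.4%. The lists were chosen with earlier results of these data known, so these counts are a description of the listed genes.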

How the data were processed

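Gastrocnemius RNA was sequenced in 3 WT and 3 Sirt6 KO libraries, grouped by the sample labels. Per the labels, the authors' processing notes list the mm10 build with bcl2fastq 2.20.0, FastQC 0.11.7, HISAT2 2.1.0, Bowtie2 2.3.4.1 and StringTie 2.1.3b; the study's reporting summary names another aligner. The kit is stranded in the labels and a different one in the methods, and whether counting used strand is not given in the sources used here.

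The counts the authors deposited are whole numbers per gene, not normalized between libraries. The deposited FPKM values divide by gene length and by library total, and the deposited TPM values to a fixed sum per library. No column (0) lacked a sample. All 3 units are in 1 table of 24532 genes, of which 7342 had no count in any library. Replicates labelled separately are taken as separate mice, and p-values measure the spread between them.

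Counts were filtered (filterByExpr, 13801 genes kept), scaled by TMM and tested with edgeR 4.0.16 in R 4.3.3 (quasi-likelihood, Benjamini-Hochberg over all genes tested, threshold 0.05). Levels are TMM-normalized CPM, and FPKM served for order between genes. Two-sided exact permutation tests over libraries allow no p under 0.1 with 3 against 3; the 7 genes whose groups were apart reached that value. No pair of libraries was within sampling noise of another. The script was tested on simulated data. Alternatives were DESeq2 1.42.0, its size factors, no filter, at least 10 counts in every library, limma 3.58.1 after quantile normalization of FPKM on a log2 scale with a pseudocount of 1 or 0.1, a lowess GC trend removed (span 0.3), the replicate number as a block, and each library left out. TPM was not tested. Libraries held 44845763 to 63016899 counts, the lowest count of any of the 10 genes was 347, and edgeR put the common biological variation (BCV) at 24.1%.

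The 10 genes and the lists were chosen with earlier results of these data known. Genes named from a list are up to 6 with the smallest adjusted p among those called and up to 2 others with the highest level; a few genes that this rule would name are not reported here.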

Additional observations from a re-analysis of the deposited data

How the results depend on the processing

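In all 15 alternatives 9 of the 10 genes kept a negative fold change, and the same 7 were lower with an unadjusted p under 0.05, as were 12.3% to 22% of all genes. Fkbp5, at -0.00, turned to 0.0012 with DESeq2 and 0.0025 without the filter, and ranged from -0.54 to 0.29 with 1 library left out. The number called lower was 6, between 4 and 7 under the alternatives with all 6 libraries, and 0 to 5 with 1 library left out (edgeR; 7 at an unadjusted p under 0.05 in each of those fits).

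Over all genes, 1158 lower and 1084 higher became 1746 and 1674 with DESeq2, 479 and 455 with the GC trend removed, and 372 and 287 with the GC trend removed and a replicate block. With 1 library left out the counts ranged from 2 to 2219 lower and from 6 to 2363 higher. The listed genes called, 22 lower and 4 higher, ranged from 0 to 34 and from 1 to 8. The fold change rose with GC content across 13271 genes (Spearman rho 0.34). The cause of these shifts was not tested.

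The replicate block alone gave 5 of the 10 lower (Tsc22d3 at an adjusted p of 0.0754), and 1018 lower and 904 higher over all genes. The numbers are not shown to pair mice: same-numbered libraries correlated at -0.11, 0.26 and 0.16 in their deviations from the group means, and not every library correlated best with its own number. With the GC trend removed and the block together, the chaperones called lower went from 7 of 13 to 1 (10 at an unadjusted p under 0.05) and the coregulators from 1 to 0 (edgeR, smallest adjusted p = 0.0512; 4 at an unadjusted p under 0.05). With the GC trend alone removed, 7 chaperones were called lower, 2 coregulators and 2 turnover genes in place of 4.

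The data are limited to 3 libraries a group from whole muscle at 1 age. Of the inflammatory list, only 5 of 11 genes had enough counts to be tested.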

Other observations

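Nr3c1 and Fkbp5 differed in which transcripts shared their pattern over the 6 libraries. Over 11625 genes with a mean of at least 1 CPM, the highest Pearson correlations of log2 CPM with Nr3c1 were those of Synj2bp (0.999), Bzw1 (0.998) and Pkn2 (0.998), and 947 genes exceeded 0.9. With Fkbp5 they were those of Zfp280c (0.984), Ccdc57 (0.961) and Zc3h3 (0.957), and 23 genes exceeded 0.9. All points share the 6 libraries, their groups and their depth, so these correlations are descriptions.

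Within the WT group, library 1 was the lowest of the 3 for 9 of the 10 genes, Errfi1 being the exception. Among the libraries labelled Sirt6 KO, library 3 was the lowest for 5 genes and the highest for 2, Fkbp5 and Zbtb16. Library 3 thus held the lowest Ddit4, 20.3 CPM, and the highest Fkbp5, 173 CPM, of the 6 libraries.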
